A study of Mus musculus with 6 samples.

Results

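H3K27ac peaks that were called in a single library were examined in mouse alveolar macrophages (AMs), the phagocytes that live in the air spaces of the lung and clear surfactant, dust and microbes. The peaks are those of Cell Signaling replicate 2 on the autosomes and X that overlapped, by as little as 1 bp, neither a peak of Cell Signaling replicate 1 nor one of the Active Motif library. They numbered 18477 of the 49139 peaks of replicate 2 (37.6%), and of 141678 peaks in the 3 libraries. They are called replicate 2 alone here, and the 30662 others are called peaks with a partner. Because they were chosen by where peaks passed the authors' threshold, the share itself and the strength and width of the peaks describe the choice and carry no test.

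AMs were obtained by bronchoalveolar lavage and flow sorting from wild-type C57BL/6J mice, 9 weeks old, and all 6 samples carried this genotype and no treatment. HT-ChIPmentation, in which the transposase Tn5 adds sequencing adapters to chromatin held on antibody beads, gave 1 library with an Active Motif antibody and 2 with a Cell Signaling antibody, beside 3 inputs. Nothing in the labels says whether the Cell Signaling libraries came from separate mice, and the number of mice behind a library is not given there. Each library has 1 peak list with no read counts, so a missing peak says that no peak passed there, and intervals below (95%, Wilson unless named) cover counting over peaks only.

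Acetylation of histone H3 at lysine 27 is laid down by CBP and p300 on the nucleosomes that flank active promoters and enhancers. It neutralises a positive charge on the histone tail and is read by bromodomain proteins. At an active site the mark is not one block: acetylated nucleosomes lie on both sides of the bound transcription factors, and in enhancer clusters, as around the identity genes of macrophages, many such sites lie close together. In macrophages the ETS factor PU.1 binds most enhancers. Siglecf, Itgax, Marco, Chil3, Fabp4 and Fabp1, which mark AMs, each had a promoter peak in all 3 libraries. At Siglecf, a sialic acid receptor, the fold enrichment over background was 39.9 for replicate 2, 29.98 for replicate 1 and 14.2 with the Active Motif antibody. At Marco, a scavenger receptor, it was 11.99, 12.7 and 7.99 in the same order, so AM markers carried the mark in each list.

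The sequences below stand for the kinds of site found among the 18477 peaks. D130040H23Rik is the strongest peak and a promoter, Batf3 a promoter of a transcription factor gene, Xist the start of a non-coding RNA gene, Crybg1 the strongest peak beyond 10 kb of any shared region and beyond 3 kb of a TSS that holds the ETS word, Ms4a6c the strongest distal peak on the flank of a shared region, and Pparg the strongest peak nearest to that nuclear receptor gene. Each is the window of 200 bp centred on the summit, on the plus strand of mm10, read from the RefSeq copy of that assembly, and capitals mark the motif words searched for.
D130040H23Rik, chr8:69271143-69271342: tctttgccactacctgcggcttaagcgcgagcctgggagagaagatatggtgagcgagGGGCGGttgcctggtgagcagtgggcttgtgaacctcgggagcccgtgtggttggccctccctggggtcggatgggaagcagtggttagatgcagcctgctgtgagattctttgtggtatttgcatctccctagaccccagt
Batf3, chr1:191097993-191098192: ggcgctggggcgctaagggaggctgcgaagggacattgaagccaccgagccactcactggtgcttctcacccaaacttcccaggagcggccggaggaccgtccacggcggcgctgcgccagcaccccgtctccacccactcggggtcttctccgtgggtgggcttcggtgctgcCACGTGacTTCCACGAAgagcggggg
Xist, chrX:103482046-103482245: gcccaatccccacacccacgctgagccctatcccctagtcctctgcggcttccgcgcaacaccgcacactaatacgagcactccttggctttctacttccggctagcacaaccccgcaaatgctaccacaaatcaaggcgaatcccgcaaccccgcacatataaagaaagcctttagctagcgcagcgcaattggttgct
Crybg1, chr10:44038130-44038329: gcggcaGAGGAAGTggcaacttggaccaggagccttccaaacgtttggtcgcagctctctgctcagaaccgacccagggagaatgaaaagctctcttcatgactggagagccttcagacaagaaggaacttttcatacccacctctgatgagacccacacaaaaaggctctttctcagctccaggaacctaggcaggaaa
Ms4a6c, chr19:11464631-11464830: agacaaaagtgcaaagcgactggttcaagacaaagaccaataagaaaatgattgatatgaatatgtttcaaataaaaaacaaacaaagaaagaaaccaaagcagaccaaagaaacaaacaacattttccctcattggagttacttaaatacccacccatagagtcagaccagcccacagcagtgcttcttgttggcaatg
Pparg, chr6:115457576-115457775: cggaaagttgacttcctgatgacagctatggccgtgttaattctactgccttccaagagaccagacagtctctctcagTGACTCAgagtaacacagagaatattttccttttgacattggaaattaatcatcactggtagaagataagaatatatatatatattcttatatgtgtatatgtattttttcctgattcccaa
The D130040H23Rik window held 1 GC box word (59.0% G and C, 8 CpG), the Batf3 window 1 E-box and 1 STAT word (68.5%, 18 CpG), the Crybg1 window 1 ETS word (52.0%, 4 CpG) and the Pparg window 1 AP-1 word (35.5%, 2 CpG). None of the words stood in the Xist window, which had 13 CpG and 56.0% G and C, or in the Ms4a6c window, which had 1 CpG and 37.0%. A word is a match of letters and not evidence that a factor binds.

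Replicate 2 alone was made of narrow and weak peaks. Their median width was 169 bp, against 1288 bp for peaks with a partner and 112 bp for the 10015 peaks of replicate 1 that overlapped neither other library (replicate 1 alone). Their median fold enrichment was 4.51 (range 2.13 to 16.6), against 14.6 with a partner and 4.23 in replicate 1 alone. The median −log10 q was 3.74 against 32.0 with a partner and 4.06 in replicate 1 alone. Fold and q thus ordered the 2 sets that were alone differently. Among all peaks with a fold from 4 to below 5, the median −log10 q was 4.91 in replicate 1 and 3.74 in replicate 2. Folds are therefore not on one scale across the libraries. Together they covered 4.35 Mb, which was 7.27% of the bases under replicate 2 peaks. A fold of 10 or more was reached by 132 of them (0.714%), by 64.3% of peaks with a partner and by 1 peak of replicate 1 alone. When replicate 2 peaks were ranked by q and put in 10 groups, the share without a partner was 84.0% in the weakest group, 46.8% in the fifth and 1.93% in the seventh. The top 2 groups held 0 of 4914 each, which allows a share of up to 0.0611% by the rule of 3 (3 over the group's size). By width the share without a partner went from 87.1% in the narrowest group to none in the widest. At the edge of the rule, the 172 peaks that missed a partner by 1 to 10 bp had a median fold of 4.69 and the 173 that overlapped one by 1 to 10 bp had 4.63, with a median width of 167 bp in both. A further 234 replicate 2 peaks had no partner in replicate 1 and 1 in the Active Motif list.

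**Figure D1:**
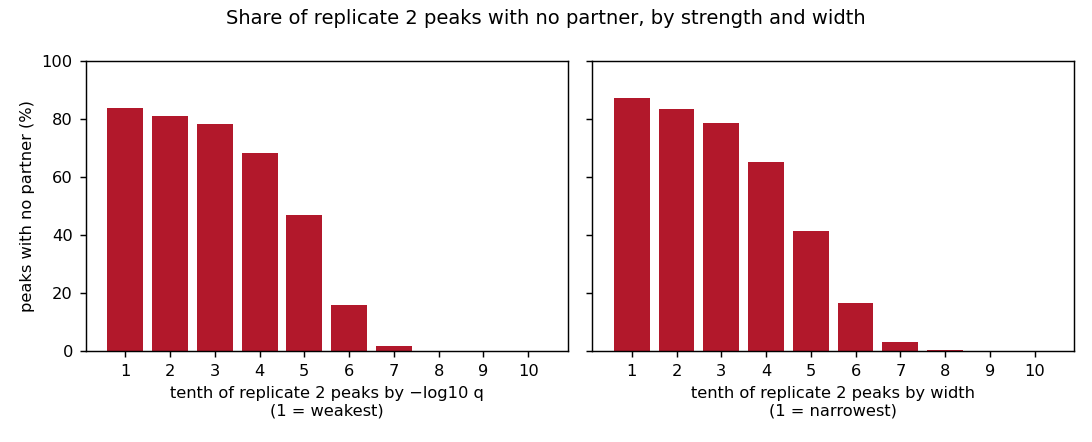
Share of replicate 2 peaks with no partner (y axis, %) in 10 equal groups of peaks by −log10 q (left) and by width (right). The bars fall from 84.0% and 87.1% in the first group to 0 in the tenth.

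The 132 peaks of fold 10 or more, which were picked by strength, differed from the full set in width and position. They were wider (median 621 bp), 61 of them (46.2%, 37.9 to 54.7) lay beyond 10 kb of any region shared by the Cell Signaling replicates, and 46 (34.8%, 27.3 to 43.3) lay within 1 kb of a transcription start site (TSS). Among all 18477 these shares were 18.8% and 11.0%. Of peaks with a partner, 32.5% lay within 1 kb of a TSS. The strongest peak, at D130040H23Rik (chr8:69270982-69271509, fold 16.6), had its midpoint 166 bp from the TSS and lay 61.2 kb from the nearest shared region. The next by q lay between genes, one 2.51 kb from the TSS of Kcnn1, a calcium-activated potassium channel (fold 15.9), and another 1.80 kb from that of Abca2, a lipid transporter (14.7). Others of the first 10 are named by the nearest protein-coding TSS. Exons held the peaks 4.70 kb from Ms4a6c (15.0), a gene of the membrane-spanning 4A family, and 2.14 kb from C1ra, a complement protease (14.4). Introns held those 27.4 kb from Fam49a (14.2) and 2.715 kb from Tnip3, an inhibitor of NF-kB signalling (13.7). Exons and introns were taken over all genes, so they need not be those of the gene named. Another lay 3.12 kb from Il12rb1, a receptor chain for interleukin-12 and interleukin-23 (14.7). The rest lay 342 bp from Syt11 (14.2) and 55.2 kb from Pdia4, a protein disulfide isomerase of the endoplasmic reticulum (13.5). Of these, Abca2, Ms4a6c, Il12rb1, C1ra, Fam49a and Syt11 lay within 1 kb of a shared region, and Pdia4 was only 95 bp wide.

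Replicate 2 alone lay close to the regions that both Cell Signaling replicates called. A shared region is a merged stretch of both Cell Signaling replicates that holds a peak of each, and there were 29277. Of the 18477 peaks, 9183 lay within 1 kb of one (49.7%, 49.0 to 50.4), against 1.96% of ungapped genome bases outside shared regions, a ratio of 25.4. The same share was 43.3% (42.4 to 44.3) in replicate 1 alone. At 10 kb the shares were 81.2% in replicate 2 alone, 63.8% in replicate 1 alone and 12.7% of bases, and at 50 kb 95.1%, 80.1% and 32.0%. The median distance was 1021 bp against 2085 bp in replicate 1 alone. Peaks within 3 kb of a TSS were within 1 kb of a shared region in 60.8% and the others in 46.0%. The gaps piled up at short range: 2568 peaks lay 101 to 150 bp from a shared region, 409 lay 51 to 100 bp away and 737 lay 201 to 250 bp away. The smallest gap between neighbouring peaks of the replicate 2 list itself was 104 bp. In clusters of shared regions joined over gaps of up to 12.5 kb (5973 clusters of 2 or more), 41.5% of replicate 2 alone lay between the regions, against 29.3% of replicate 1 alone and 2.30% of bases.

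**Figure D2:**
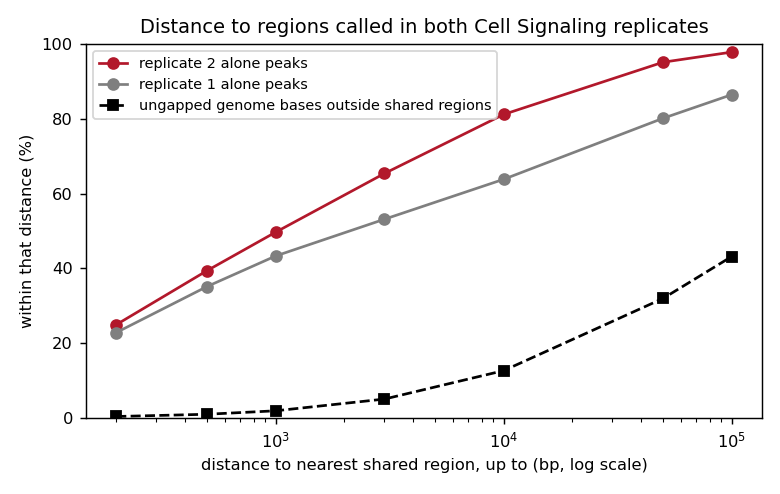
Share (y axis, %) of replicate 2 alone, replicate 1 alone and ungapped genome bases outside shared regions that lie within a given distance (x axis, bp, log scale) of a region shared by the Cell Signaling replicates. At 1 kb the values are 49.7%, 43.3% and 1.96%.

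Distance split the peaks into 3 zones, which were set here at 1 and 10 kb. The flank zone (up to 1 kb) held 9183, the intermediate zone 5815 and the solitary zone (beyond 10 kb) 3479. Peaks were wider and stronger with distance: the median width was 154, 184 and 202 bp, and the share with a fold of 5 or more was 30.2% (29.2 to 31.1), 37.6% (36.4 to 38.9) and 44.6% (43.0 to 46.3). Position did not follow one order. Within 1 kb of a TSS lay 11.5% of flank peaks, 6.79% of intermediate peaks and 16.8% of solitary peaks, and introns held 62.6%, 66.2% and 48.4%. The 2 peaks farthest from any shared region, 4.28 Mb away, lay at the start of Dsel, an epimerase-like gene, with folds of 6.16 and 4.32. The next were 3.45 Mb away between genes, with the TSS of Cntnap5a as the nearest protein-coding one at 828.4 kb (fold 4.14), 1.93 Mb away 476 bp from the TSS of Zik1, a zinc finger gene (5.99), and 1.91 Mb away in an intron at Fhit (4.87). The widest 5 were 2279 bp near Magi2, 2135 bp near Klhl42, 1990 bp near Ang6, 1912 bp near Kctd12b and 1742 bp near Cntrl. The Magi2 peak had a fold of 2.33, the others 7.06 to 8.36.

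Relative to genes, replicate 2 alone was mainly intronic. By midpoint, 61.0% lay in introns, 24.1% between genes, 3.83% in exons and 11.0% within 1 kb of a TSS, against 42.03%, 22.6%, 2.88% and 32.5% for peaks with a partner. The median distance to a TSS was 8.64 kb against 4.89 kb. Within 3 kb of a TSS lay 25.05% (24.4 to 25.7) of replicate 2 alone, 42.8% of peaks with a partner, 29.1% of those of them at or below the median −log10 q (the weaker ones below), 32.9% of replicate 1 alone and 11.96% of genome bases. Introns held 52.2% of the weaker peaks with a partner and 53.5% of replicate 1 alone. The median distances to a TSS in these sets were 7.96 and 7.52 kb, nearer to that of replicate 2 alone. The Mantel-Haenszel odds ratio for a place within 3 kb was 0.446 with no grouping, 1.0005 (0.941 to 1.06) within 10 groups of q, and 0.869 (0.815 to 0.926) within 10 groups of q by 10 groups of width. At 1 kb the values were 0.257, 1.07 and 0.873. At 3 kb the interval thus included 1 with groups of q alone and lay below 1 with groups of q and width. Replicate 1 alone had more peaks between 1 and 3 kb (18.9% against 14.0%) and fewer between 3 and 10 kb (23.4% against 29.3%).

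**Figure D3:**
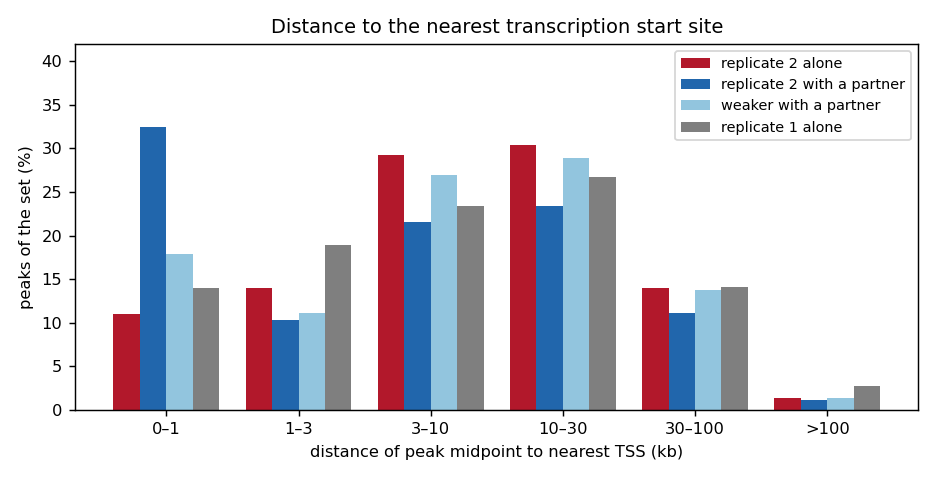
Share of each peak set (y axis, %) by distance of the peak midpoint to the nearest TSS (x axis, kb) for replicate 2 alone, peaks with a partner, the weaker ones of those by q, and replicate 1 alone. In the first kb the sets hold 11.0%, 32.5%, 17.9% and 14.0%.

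Sequence, which played no part in the choice, differed between the zones. Windows of 200 bp at the summits were searched on both strands for 11 words: GAGGAAGT (ETS and PU.1), TTGCNNAA (CEBP), TGANTCA (AP-1), CACGTG (E-box), TGTGGTTT (RUNX), AGGTCA (nuclear receptor site), TGACGTCA (CRE), CCGCCC (GC box), TTCNNNGAA (STAT), an NF-kB consensus, and CTGCCC as a word for comparison. Each word was counted on its own, so that overlapping words count for both. Beyond 3 kb of a TSS, the ETS word stood in 1.37% (1.11 to 1.68) of flank windows, 3.14% (2.68 to 3.67) of intermediate and 4.54% (3.82 to 5.40) of solitary windows. Windows 5 kb away outside any peak held it in 1.04% (0.894 to 1.20). The weaker distal peaks with a partner held it in 2.82% (2.53 to 3.15) and distal replicate 1 alone in 2.25% (1.92 to 2.63). The windows 5 kb away were set from peaks of replicate 2 alone at any distance from a TSS, so they are not limited to distal places. The interval of solitary windows lay above that of the weaker peaks with a partner, and the interval of flank windows met that of windows outside peaks. G and C content was nearly level over these zones, at 43.4%, 43.8% and 44.2%. The CEBP word stood in 8.21%, 8.87% and 9.31% of distal flank, intermediate and solitary windows and in 7.92% of windows 5 kb away, and the comparison word in 12.9%, 13.1% and 13.3% against 13.02%. The AP-1 word, that of the Fos and Jun factors, stood in 6.64% (6.23 to 7.06) of distal windows of replicate 2 alone and 6.05% (5.70 to 6.42) of windows 5 kb away, against 8.16% (7.66 to 8.69) of weaker distal peaks with a partner and 8.08% (7.45 to 8.76) of distal replicate 1 alone. The nuclear receptor word stood in 12.3% of replicate 2 alone and 12.02% of windows 5 kb away. The RUNX word stood in 2.01% (1.82 to 2.22) and 1.56% (1.38 to 1.76), the E-box in 2.54% and 2.35%, the CRE in 0.168% and 0.149%, and the NF-kB consensus in 0.222% and 0.143%. By zone, the STAT word stood in 6.30%, 6.60% and 8.26% (7.27 to 9.37) of distal flank, intermediate and solitary windows, against 6.42% (6.06 to 6.80) of windows 5 kb away and 7.35% (6.88 to 7.85) of weaker distal peaks with a partner. The RUNX word stood in 1.95%, 2.26% and 2.52% (1.99 to 3.18) of the zones and 2.17% of those weaker peaks.

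At promoters the zones differed in base composition. Solitary peaks within 1 kb of a TSS had a mean of 10.1 CpG per window and held the GC box word in 25.6% (22.3 to 29.3), and flank peaks there had 7.41 CpG and 16.4% (14.3 to 18.7). The weaker promoter peaks with a partner had 9.93 CpG and 25.2% (23.6 to 26.8). Promoter peaks of replicate 1 alone had 4.40 CpG and 8.71% (7.35 to 10.3). Repeats marked by RefSeq covered 21.7% of bases in replicate 2 alone, 15.7% in peaks with a partner, 20.001% in replicate 1 alone and 29.9% in windows 5 kb away.

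**Figure D4:**
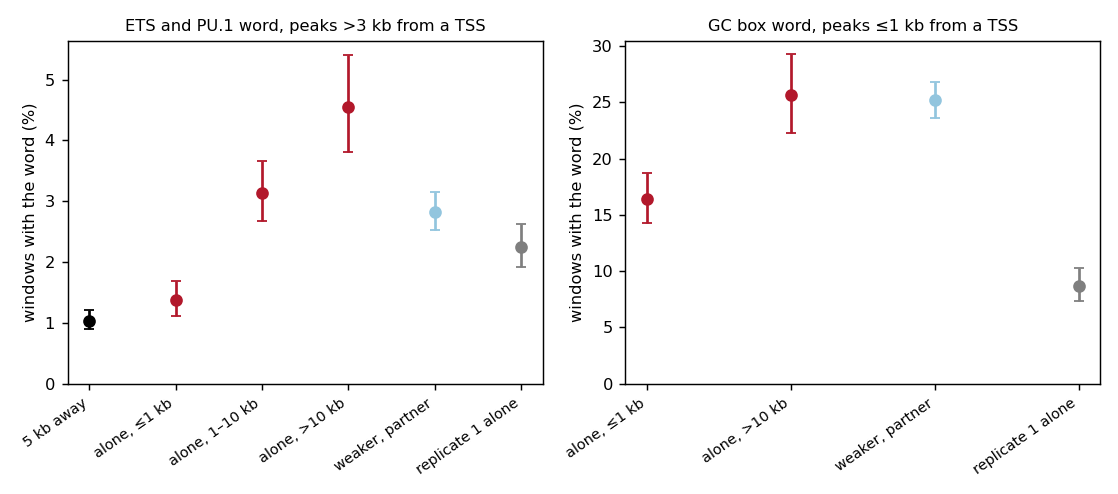
Share of 200 bp summit windows with a word (y axis, %; points, with 95% Wilson intervals). Left, the ETS and PU.1 word in distal windows of replicate 2 alone at up to 1 kb, 1 to 10 kb and over 10 kb from a shared region (1.37%, 3.14%, 4.54%) and in 3 other sets; right, the GC box word in windows within 1 kb of a TSS, with 25.6% in solitary and 8.71% in replicate 1 alone.

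Promoters with a peak of replicate 2 alone came in 2 kinds. Of 21755 protein-coding genes, 1386 had such a peak within 1 kb of a TSS, and at 919 of these another library also had a peak there. The other 467 genes (2.15% of all) had no peak of another library, and 340 of these lay beyond 10 kb of any shared region. That distance is partly set by the choice, which left out genes with another library's peak within 1 kb. Of all 2036 peaks of replicate 2 alone with a midpoint within 1 kb of a TSS, 585 were solitary. Replicate 1 alone gave 290 genes with a promoter peak of its own and none of another library. The median fold at the 467 promoters was 5.61, and 29 reached 10. The first after D130040H23Rik by q were Lancl1, a glutathione-binding protein (chr1:67038885-67039339, fold 13.3), Tmem161b (chr13:84222300-84222732, 12.8), R3hcc1 (12.1), Zfp316, a zinc finger gene (11.4), Foxd2, a forkhead factor (11.8), Gm13283 (12.03), Pak1, a kinase that acts under Rac and Cdc42 (11.8), Pira2, an activating receptor of the paired immunoglobulin-like family (12.03), and Slc7a8, an amino acid transporter (12.03). Vash1, an inhibitor of vessel growth (12.03), had the same q as the last 5 of these and came after them only by symbol. The Lancl1 peak lay 174.6 kb and the Tmem161b peak 966.2 kb from the nearest shared region. Genes with symbols of the Zfp series, zinc finger genes many of which encode KRAB repressors, made up 28 of the 467 (5.996%, 4.18 to 8.53), against 1.82% of all protein-coding genes, 2.85% of genes with any replicate 2 promoter peak and 1.72% of the 290. This group was looked at after its values were seen. Its strongest members after Zfp316 were Zfp354c and Zfp449 (both fold 8.54) and Zfp976 (7.99).

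In 21 gene lists (364 of 367 symbols matched), 11 genes had a promoter peak in replicate 2 alone and in no other library. Over all genes that share was 2.15%, and a list of 13 to 29 genes would hold 0 or 1 at it. None was among the 24 AM core genes, the 29 AM regulators, the 20 lysosomal, 26 lipid, 20 cell cycle or 20 housekeeping genes. Replicate 1 had a promoter peak at every AM core, lysosomal, cell cycle and housekeeping gene, so a count of none was fixed there. It also had one at 26 of the regulators and 24 of the lipid genes, which left few that could count. Batf3 (fold 10.01) and Irf4 (5.97), transcription factors of dendritic cells, and Cx3cr1, the fractalkine receptor of monocytes (5.42), and Hp, haptoglobin (3.32), were 2 of 13 dendritic cell and 2 of 14 monocyte genes. The inducible chemokine gene Ccl2 had 4.69 and the interferon-stimulated gene Ifit3 6.89, each 1 gene of its list. The rest were Cxcr2, a neutrophil chemokine receptor (5.61), Pdpn, a marker of type I alveolar epithelium (10.2), and Etv5, a factor of type II cells (4.69). Vwf of endothelium (5.42) and Acta2, smooth muscle actin (8.54), completed them. The Vwf peak lay 425 bp and the Acta2 peak 1402 bp from a shared region. The Ccl2 peak lay 5.845 kb and the Pdpn peak 9.15 kb from one, and the others lay beyond 10 kb. Among marker genes of other cells, replicate 2 as a whole had a promoter peak at 9 of 14 monocyte, 5 of 13 dendritic cell, 3 of 13 neutrophil and 3 of 14 endothelial genes, against 6, 3, 2 and 2 in replicate 1. It had one at 6 of 18 alveolar epithelial, 1 of 12 airway, 1 of 14 T and NK cell, 2 of 11 B cell, 1 of 14 fibroblast and muscle and 0 of 7 eosinophil genes, against 8, 7, 1, 2, 0 and 0. Whether chromatin of other cells had a part in these peaks was not tested.

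By the nearest protein-coding TSS, replicate 2 alone was spread over 6291 genes (28.9% of all), 45.1% of which had 1 peak. Of the AM core genes 21 of 24 were nearest to at least 1 (87.5%), of the monocyte genes 12 of 14 (85.7%), of the lysosomal genes 16 of 20 (80.0%), of the lipid genes 18 of 26 (69.2%), of the dendritic cell genes 8 of 13 (61.5%), of the inducible inflammatory genes 12 of 20, of the housekeeping genes 10 of 20, of the T and NK cell genes 2 of 14 (14.3%) and of the genes of other organs 1 of 22 (4.55%). Set against all replicate 2 peaks at the same genes, replicate 2 alone made up 46.4% at AM core genes (162 of 349), 47.3% at AM regulators (263 of 556), 46.9% at lysosomal, 43.8% at housekeeping, 36.8% at inducible inflammatory, 26.9% at lipid (43 of 160) and 22.7% at cell cycle genes (10 of 44), beside 37.6% overall. The other 14 lists lay between 16.7% (2 of 12 peaks, T and NK cells) and 47.3% (44 of 93, monocytes). The genes of the lists differ in their length and in how many peaks they have, and these shares carry no test.

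The 10 genes nearest to most of these peaks took 424 of them (2.29%). Zeb2, a repressor that helps to keep macrophage identity, led with 54 of its 74 replicate 2 peaks, but only 31 of the 54 lay within 100 kb of the TSS. Dock10 had 53 of 89, Klhl25 51 of 78, Tcf7l2, a factor of the Wnt pathway, 51 of 85, Frmd4a 38 of 71, Pag1, an adaptor that binds Csk, 37 of 64, Bcar3 36 of 52, Pparg 36 of 51, Tns1, which links integrins to actin, 35 of 46 and Cd44, the hyaluronan receptor, 33 of 49. Within 100 kb of the TSS lay only 22 of the 51 at Klhl25, 48 of the 51 at Tcf7l2 and 34 of the 37 at Pag1. At the other genes after Zeb2 all of them did. Median folds at the 10 genes were between 4.24 and 4.69. The share within 1 kb of a shared region was 61.1% at Pparg and 12.1% at Cd44. Pparg encodes the nuclear receptor that AMs need to handle lipids, and its own promoter had peaks in all 3 libraries. From 20 kb before its start to 140 kb after it, replicate 2 had 57 peaks, of which 40 were alone, replicate 1 had 53 and the Active Motif library 25.

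**Figure D5:**
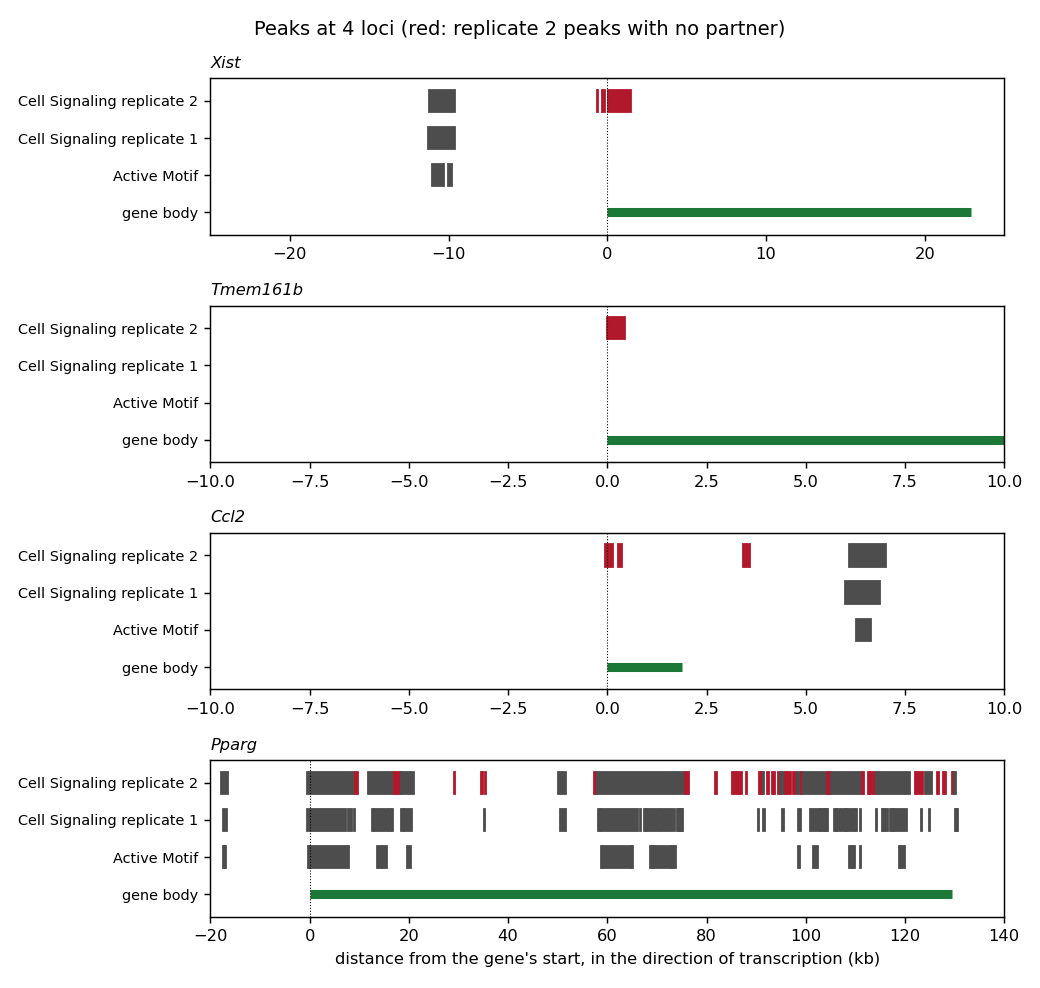
Peaks of the 3 libraries at 4 loci (x axis, kb from the gene's start in the direction of transcription; bars, peak extents; red, replicate 2 alone; green, gene body, cut at the window's end). At Xist and Tmem161b only replicate 2 has peaks at the start, at Ccl2 the start has 2 such peaks and the partnered peaks lie about 6 kb on, and at Pparg 40 red bars lie among partnered ones.

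Across chromosomes, the share of replicate 2 peaks that were alone ran from 34.5% to 40.6% over the 19 autosomes and was 40.2% on X (512 of 1273). Replicate 1 alone made up 15.3% to 22.2% of its list on autosomes and 8.53% on X. For each replicate 1 peak there were 0.836 to 0.903 replicate 2 peaks on the autosomes and 1.02 on X. The start of Xist, which encodes the non-coding RNA that coats and silences an inactive X chromosome (chrX:103460366-103483254, minus strand), had 3 peaks of replicate 2 alone within 3 kb. They had folds of 11.3 (chrX:103481785-103483194), 5.06 (chrX:103483374-103483558) and 4.69 (chrX:103483830-103483922). Neither replicate 1 nor the Active Motif library had a peak in that window. The nearest replicate 1 peak lay 8.95 kb from the closest of these 3 peaks. Xist was looked at after its values were seen. Neither the labels nor the methods give the sex of the mice behind each library, and its part in the X counts was not tested.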

How the data were processed

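H3K27ac was measured by HT-ChIPmentation in 3 libraries of sorted AMs. By the study's methods, paired reads lost their adapters, were placed on mm10 by Bowtie2, lost duplicates and poorly mapped pairs, and went with input into MACS3 at a q-value threshold of 0.05. The deposited lists give a fold enrichment (a ratio), a −log10 p-value, a −log10 q-value, a score derived from the q-value and a summit for each peak, as the authors' caller wrote them. Read depth was not in these lists. The study's quality table lists more aligned read pairs for Cell Signaling replicate 2 than for replicate 1. The study's methods name H3K27ac under 2 sonication set-ups, which differ in instrument and time. Which library had which is not given in the sources used here. The Active Motif library was sequenced apart, so antibody, run, depth and any difference in sonication cannot be told apart. Whether the Cell Signaling replicates shared a run is not given either, so a run may coincide with the replicate. Submitters' notes name bcl2fastq 2.20.0.422, CASAVA, cutadapt, Bowtie2, SAMtools and MACS3.

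Here, overlaps, gaps and distances were computed in Python 3.11.15 with numpy 2.4.6 and pandas 2.3.3, and reciprocal overlaps with bedtools 2.31.1. Positions are on mm10, counted from 1. TSS came from the GENCODE vM21 basic annotation (75508 start positions by gene), and sequence from RefSeq GRCm38. Peak position used the midpoint, and promoter counts any overlap with 1 kb either side of a TSS. Odds ratios have Robins, Breslow and Greenland intervals. The routines for gaps and odds ratios were tested on simulated data. Peaks are not replicates, so no p-value was computed.

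The members, gene lists and motif words were chosen with earlier results of these data known. Genes named are the nearest to the 10 strongest peaks, to the 5 widest and to the 5 farthest from shared regions, the 10 nearest to most peaks, the 10 with the strongest promoter peak absent from other libraries (ties in q by symbol), and every listed gene with such a peak. Crybg1, Xist, Vash1 and the Zfp genes were chosen after their values were seen. Alternatives were other overlaps, thresholds, windows and library sets.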

Additional observations from a re-analysis of the deposited data

How the results depend on the processing

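No paired analysis was possible because each library has 1 peak list and no result comes from a test across samples. The number of replicate 2 peaks without a partner (18477) was 30121 when at least 50% of both peaks had to overlap, 8968 with a q-value of 1e-05 or smaller in all 3 libraries, 5901 when only the peaks themselves had to pass that threshold, and 30682 without replicate 1, when partners came from the Active Motif list alone. It moved by less than 1.5 times with partners within 200 bp, with equal list lengths and without the Active Motif list. Leaving out replicate 2 gives no value.

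The share within 3 kb of a TSS (25.05%) was 11.0% at 1 kb, 54.4% at 10 kb, 18.3% with protein-coding TSS, 23.7% with partners within 200 bp, 27.8% with the larger overlap, 27.6% and 27.3% under the stricter thresholds in the same order, and 26.4% without replicate 1. The odds ratio (0.869) was 0.976 at 10 kb and 0.446 with no groups, and with strength groups alone it was 1.0005, with an interval of 0.941 to 1.06 on both sides of 1. The share within 1 kb of a shared region (49.7%) was 33.2% for regions that also hold an Active Motif peak, 39.4% at 500 bp, 65.4% at 3 kb, 42.8% with partners within 200 bp, 68.8% with the larger overlap, 60.5% and 41.4% under the stricter thresholds and 52.8% with equal list lengths. It was not computed without replicate 1, since shared regions need it. The count of 467 promoters was 303 when only the peaks had to pass 1e-05 and 1672 without replicate 1. It stayed within 1.5 times in the other 7 settings. The causes of these shifts were not tested.

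Limits: 1 library carries every result, peaks that miss a threshold are indistinguishable here from unmarked sites, and most of the peaks are weak.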
